A study of Mus musculus with 12 samples.

Results

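The serotonin receptor genes Htr1a, Htr1b, Htr1d, Htr1f, Htr2a, Htr2c, Htr4, Htr5a, Htr6 and Htr7 were followed in RNA-seq of the mouse hypothalamus, the brain region that balances feeding and energy use. The 10 genes were found by Ensembl ID among the 78334 gene IDs of the count table, and all 10 had enough reads to be tested. The 12 libraries came from male C57BL/6 mice, 8 weeks old when the diets began. The study's methods name separate animals for Ob + RSV, Ob and C, whereas no source used here says so for the 2 Ob + EAE libraries. All groups, controls included, received a daily gavage for 28 days. Mice with obesity ate a high-fat diet (HFD), and from 16 weeks of age were given resveratrol, a plant polyphenol, at 2.25 mg/kg (Ob + RSV, n = 3), 200 mg/kg of an extract of aged garlic (Ob + EAE, n = 2), curcumin, the yellow pigment of turmeric, at 50 mg/kg (Ob + CUR, n = 1) or vehicle (Ob, n = 3). Control mice ate a standard diet and received vehicle (C, n = 3). The labels give 8 weeks of HFD in all, while they and the study's text also place the treatment within the diet, so whether the HFD went on during the gavage is not settled here. The paper that reported the series covers Ob + RSV, Ob and C. Libraries are named here by group and replicate number.

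Serotonin is made by neurons of the raphe nuclei in the brainstem, whose axons reach the hypothalamus. Its receptors, apart from a family of ion channels, are coupled to G proteins. Receptors of types 1 and 5 work through Gi/o proteins, which lower cyclic AMP and open potassium channels. Those of type 2 work through Gq, which activates phospholipase C and releases calcium, and those of types 4, 6 and 7 work through Gs, which raises cyclic AMP. Htr2c, on the X chromosome, encodes the receptor best known for satiety: it excites Pomc neurons of the arcuate nucleus, and mice that lack it overeat and become obese.

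Counts per gene hold no sequence, so 3 reference sequences are shown for the pair of receptor genes with the highest level per length, Htr2c and Htr7. The pre-mRNA of Htr2c is known to be edited, adenosine to inosine, at 5 adenosines close together in its coding sequence, which changes how well the receptor couples to its G protein. The stretch that holds them, 30 bases in 2 of the 4 protein-coding transcripts of Htr2c in GENCODE vM21, is given with these adenosines in capitals. An edited and an unedited read count alike for the gene, so the values here sum all edited forms. The promoters are from RefSeq on GRCm38.p6, 250 bases before to 50 after the start of the gene, from chrX:146962263-146962562 on the plus strand for Htr2c and from chr19:36057311-36057610 on the minus strand for Htr7. Capitals mark a match to TGACG, the core of the cyclic AMP response element, on either strand.
Htr2c edited stretch: gtagcaAtAcgtAAtcctAttgagcatagc
Htr2c promoter: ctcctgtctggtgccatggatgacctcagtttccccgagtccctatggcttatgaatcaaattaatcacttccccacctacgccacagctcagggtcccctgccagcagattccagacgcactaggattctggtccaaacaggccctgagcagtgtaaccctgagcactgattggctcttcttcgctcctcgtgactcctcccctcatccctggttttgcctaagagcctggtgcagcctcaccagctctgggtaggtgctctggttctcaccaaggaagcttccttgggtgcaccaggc
Htr7 promoter: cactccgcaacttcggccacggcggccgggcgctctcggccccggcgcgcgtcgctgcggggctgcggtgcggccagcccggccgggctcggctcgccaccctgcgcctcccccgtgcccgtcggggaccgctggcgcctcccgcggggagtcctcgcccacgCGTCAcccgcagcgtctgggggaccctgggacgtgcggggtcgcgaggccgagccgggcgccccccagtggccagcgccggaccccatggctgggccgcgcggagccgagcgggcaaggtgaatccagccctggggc

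The Htr2c promoter held 5 CpG dinucleotides at a GC content of 56.3%, and 43.6% of the 32851 promoters of the same length held as few or fewer. The Htr7 promoter held 46 at 81.0% GC, and 98.6% of promoters held as many or fewer. Of the motifs searched on both strands, TATAAA occurred in 13.6% of all promoters, TGACG in 20.8% and GGGCGG, the GC box, in 35.7%. The Htr7 promoter had 1 TGACG and neither of the others, and the Htr2c promoter had none of the 3. Promoters were read for 9 of the 10 receptor genes, all but Htr4, whose chromosome was left out of this step. A match describes these letters and is not a binding site.

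Counted reads per library ran from 15655156 to 26284661, and genes with at least 1 read from 24450 to 38081. C 2, Ob 1 and Ob + RSV 2 had the fewest genes, 24450 to 26123, and results are also given without them. The tissue was checked by 16 markers of the hypothalamus, of which 13 had reads in all 12 libraries and Kiss1 had 0 reads in every one. Their summed level was 1314 to 2570 CPM (reads of the gene scaled to a common library size, with TMM factors) in Ob + RSV, 1181 to 1381 in Ob + EAE, 381 in Ob + CUR, 1588 to 3447 in Ob and 1657 to 2367 in C. Ob + RSV 3 stood apart, with 0 reads for Nr5a1, which marks the ventromedial nucleus, 0 for Rax, which marks tanycytes, and 2.49 CPM of Pomc, against 28.8 to 192 CPM in the other 11 libraries. Ob + CUR had 3.96 CPM of Oxt and 8.26 CPM of Avp, the peptides of the magnocellular nuclei, against at least 199 and 244 CPM elsewhere. Nr5a1 was low in Ob + CUR too, at 0.422 CPM. Rax was also low in Ob + EAE, at 0.557 and 0.592 CPM, and in Ob + RSV 2, at 0.668 CPM. Ob + RSV 3 and Ob + CUR are therefore named wherever a result turns on them.

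Htr2c is also the receptor of the choroid plexus, and 5 of the 12 markers of that tissue were at 0 in at least 1 library. Ttr, its most abundant transcript where the tissue is present, was at 0 to 9.36 CPM. Of 5 raphe markers, Tph2, the enzyme of serotonin synthesis, Slc6a4, the serotonin transporter, Fev and Gata3 were at 0 reads in at least 1 library each, and the first 3 were below 1 CPM in every library. Slc18a2, a vesicle transporter that dopamine and other amine neurons share, had 17.1 to 99.3 CPM and made up most of the list's sum.

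Per kilobase of exon, a scale that depends on the length given to each gene, Htr7 and Htr2c led (mean over 12 libraries 9.36 ± 1.34 and 8.58 ± 2.43 CPM per kb, SD). Htr7 was above Htr2c in 9 of the 12 libraries and their ranges overlapped, so these neighbours did not differ beyond their spread. Htr2c was above Htr1a in 12 of 12 libraries, at 6.25 to 14.4 CPM per kb against 2.11 to 5.87, the only neighbours in the order whose ranges did not overlap. Below them came Htr1a (mean 3.40 CPM per kb), Htr1b (3.29), Htr2a (2.27), Htr5a (1.97), Htr6 (1.60), Htr1d (0.872), Htr4 (0.673) and Htr1f (0.190). Lengths are unions of exons in GENCODE vM21, and the 9328 bp of Htr2c are longer than 92.3% of the expressed genes. The longest single transcript of Htr2c there has 4883 bases, and on that length its level per kb would be higher. The order of Htr7 and Htr2c thus depends on the length used, and levels by transcript length were not computed.

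**Figure D1:**
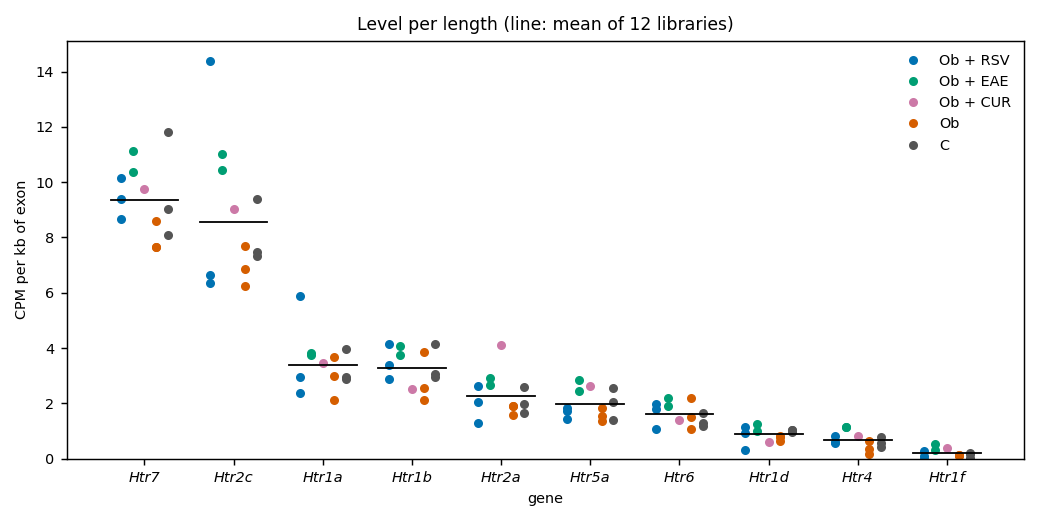
Level of each receptor gene per length (y axis, TMM-scaled CPM per kb of exon) in the order of the mean over 12 libraries (x axis). Points are libraries coloured by group and the line is the mean. Htr7 and Htr2c, at means of 9.36 and 8.58 CPM per kb, stand above the other 8 genes, and the highest point of Htr2c, 14.4 CPM per kb, is Ob + RSV 3.

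Summed over the 10 genes, the level was 25.2 to 41.5 CPM per kb in Ob + RSV, 39.3 to 39.4 in Ob + EAE, 34.7 in Ob + CUR, 25.4 to 28.8 in Ob and 27.6 to 36.9 in C. The Gq-coupled pair Htr2a and Htr2c took 28.1% to 41.0% of that sum over the 12 libraries, the Gs-coupled Htr4, Htr6 and Htr7 took 28.9% to 42.0%, and the Gi/o-coupled genes took the remaining 25.1% to 35.5%. Htr2c by itself took 21.5% to 34.7%, with the highest share in Ob + RSV 3. With these exon lengths none of the 3 arms was the largest in all libraries. In Ob + RSV 3 Gq took 41.0% and Gs 28.9%, whereas in Ob 1 Gs took 40.4% and Gi/o 25.1%. No arm's share separated Ob + RSV from Ob or Ob from C. A shorter length for Htr2c would raise the Gq share.

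Replicate spread set what could be seen. The biological coefficient of variation that edgeR fitted over the 9 libraries of Ob + RSV, Ob and C was smallest for Htr7 (0.215) and Htr2c (0.233), below the 0.299 of the median expressed gene, and largest for Htr1f (1.22). Between the highest and the lowest of the 12 libraries, Htr7 differed 1.55-fold, Htr2c 2.30-fold and Htr4 7.36-fold. Ob 1 was the lowest library for Htr1a, Htr1b, Htr4 and Htr5a and lay above the median of 12 libraries for 0 of the 10 genes. Both Ob + EAE libraries lay above that median for 10 of 10, and Ob + RSV 3 and C 1 for 9. How many of all genes lay above their medians in these libraries was not computed. The library of Ob + CUR, which entered no comparison, was above every C library for 4 of the 10 receptor genes, against 28.9% of all genes.

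**Figure D2:**
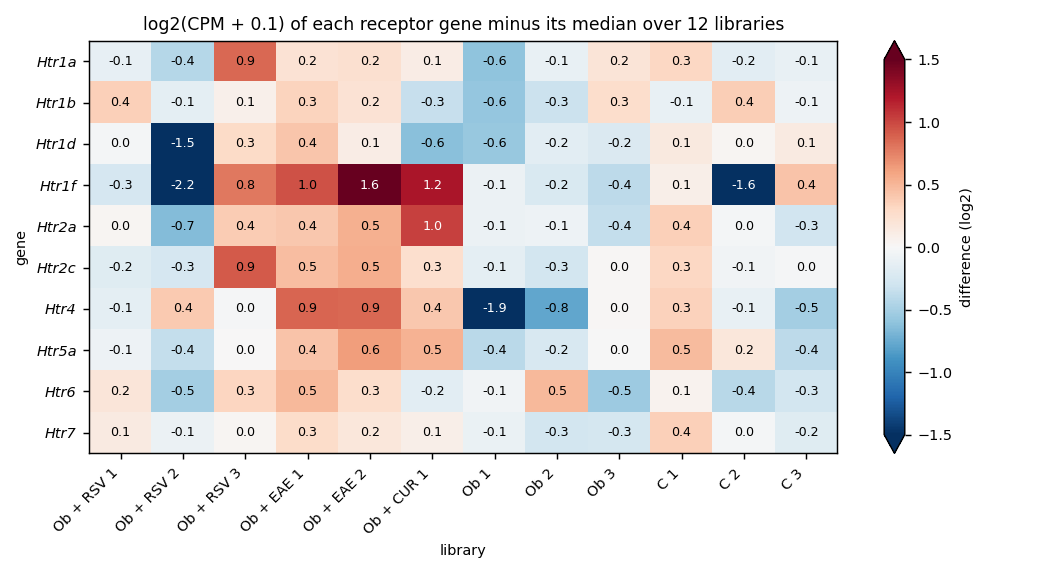
Deviation of each receptor gene (rows) in each library (columns, Ob + RSV, Ob + EAE, Ob + CUR, Ob and C from left to right), as log2(CPM + 0.1) minus the median of that gene over 12 libraries. Red is above and blue below the median. The Ob + EAE columns are above 0 in all 10 rows, and the Ob 1 column is below 0 in all 10, down to −1.86 for Htr4.

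Htr2c (ENSMUSG00000041380) had 62.1, 59.4 and 134 CPM in Ob + RSV, 97.5 and 103 in Ob + EAE, 84.3 in Ob + CUR, 64.1, 58.3 and 71.7 in Ob and 87.7, 68.3 and 69.7 in C, from 1006 to 2324 reads per library. The Ob libraries lay at the low end of the C libraries and overlapped them by their highest member. The pair of Ob + EAE libraries lay above all Ob and all C libraries, and Ob + RSV was split, with 2 libraries among the Ob values and Ob + RSV 3 above every other library.

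Htr2a (ENSMUSG00000034997), the Gq-coupled receptor that psychedelic drugs activate, had 11.5, 7.12 and 14.7 CPM in Ob + RSV, 15.0 and 16.4 in Ob + EAE, 23.1 in Ob + CUR, 10.6, 10.7 and 8.75 in Ob and 14.4, 11.1 and 9.21 in C. Its highest library was Ob + CUR and its lowest Ob + RSV 2, and C, Ob and Ob + RSV overlapped.

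Among the Gi/o-coupled receptors, Htr1a (ENSMUSG00000021721), the autoreceptor on the cell bodies of serotonin neurons and a postsynaptic receptor elsewhere, had 13.2, 10.7 and 26.3 CPM in Ob + RSV, 16.8 and 17.1 in Ob + EAE, 15.5 in Ob + CUR, 9.46, 13.3 and 16.4 in Ob and 17.8, 12.9 and 13.3 in C. As with Htr2c, its highest value was in Ob + RSV 3. Htr1b (ENSMUSG00000049511), an inhibitory receptor of axon terminals, averaged 16.4 ± 2.94 CPM in Ob + RSV, 18.4 ± 1.08 in Ob + EAE, 13.5 ± 4.26 in Ob and 16.0 ± 3.14 in C (SD, n = 3, 2, 3 and 3), with 11.9 in Ob + CUR. Its lowest library was Ob 1, at 10.1 CPM, and the groups overlapped.

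Htr1d (ENSMUSG00000070687), a close relative of Htr1b on axon terminals, had 2.91, 0.979 and 3.64 CPM in Ob + RSV, 4.00 and 3.23 in Ob + EAE, 1.90 in Ob + CUR, 1.98, 2.67 and 2.54 in Ob and 3.31, 3.05 and 3.29 in C. It was the 1 receptor gene whose Ob libraries all lay below all C libraries, on 36 to 46 reads in Ob and 55 to 77 in C. Htr1f (ENSMUSG00000050783), the target of a class of migraine drugs, was barely detected. It had 0 to 12 reads in Ob + RSV, 17 and 29 in Ob + EAE, 23 in Ob + CUR, 4 to 6 in Ob and 1 to 11 in C, and the 0 reads of Ob + RSV 2 allow up to 0.134 CPM (3 counts, counting error only). Htr5a (ENSMUSG00000039106), a Gi/o-coupled receptor of neurons, had 9.29, 7.61 and 9.83 CPM in Ob + RSV, 13.2 and 15.2 in Ob + EAE, 14.1 in Ob + CUR, 7.37, 8.29 and 9.80 in Ob and 13.7, 11.1 and 7.47 in C. The Ob + EAE and Ob + CUR libraries were thus above the Ob libraries, while C spanned both.

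Among the Gs-coupled receptors, Htr7 (ENSMUSG00000024798), known in the hypothalamus for its part in circadian phase shifts, had 34.5, 29.5 and 32.0 CPM in Ob + RSV, 37.8 and 35.2 in Ob + EAE, 33.2 in Ob + CUR, 29.2, 26.0 and 26.0 in Ob and 40.2, 30.8 and 27.5 in C. All Ob + RSV and Ob + EAE libraries lay above all Ob libraries, the closest being Ob + RSV 2 and Ob 1. Htr4 (ENSMUSG00000026322), a receptor that raises neuronal excitability and is a drug target in the gut, had 2.75, 4.05 and 3.01 CPM in Ob + RSV, 5.67 and 5.64 in Ob + EAE, 4.09 in Ob + CUR, 0.770, 1.74 and 3.10 in Ob and 3.91, 2.83 and 2.12 in C. The Ob libraries were far apart among themselves, on 14, 30 and 50 reads, whereas the Ob + EAE libraries had 122 and 124. Htr6 (ENSMUSG00000028747), a receptor of neuronal cilia, averaged 3.77 ± 1.10 CPM in Ob + RSV, 4.79 ± 0.524 in Ob + EAE, 3.72 ± 1.35 in Ob and 3.18 ± 0.574 in C (SD, n = 3, 2, 3 and 3), with 3.29 in Ob + CUR, and its Ob + EAE libraries lay above all C libraries while the other groups overlapped.

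**Figure D3:**
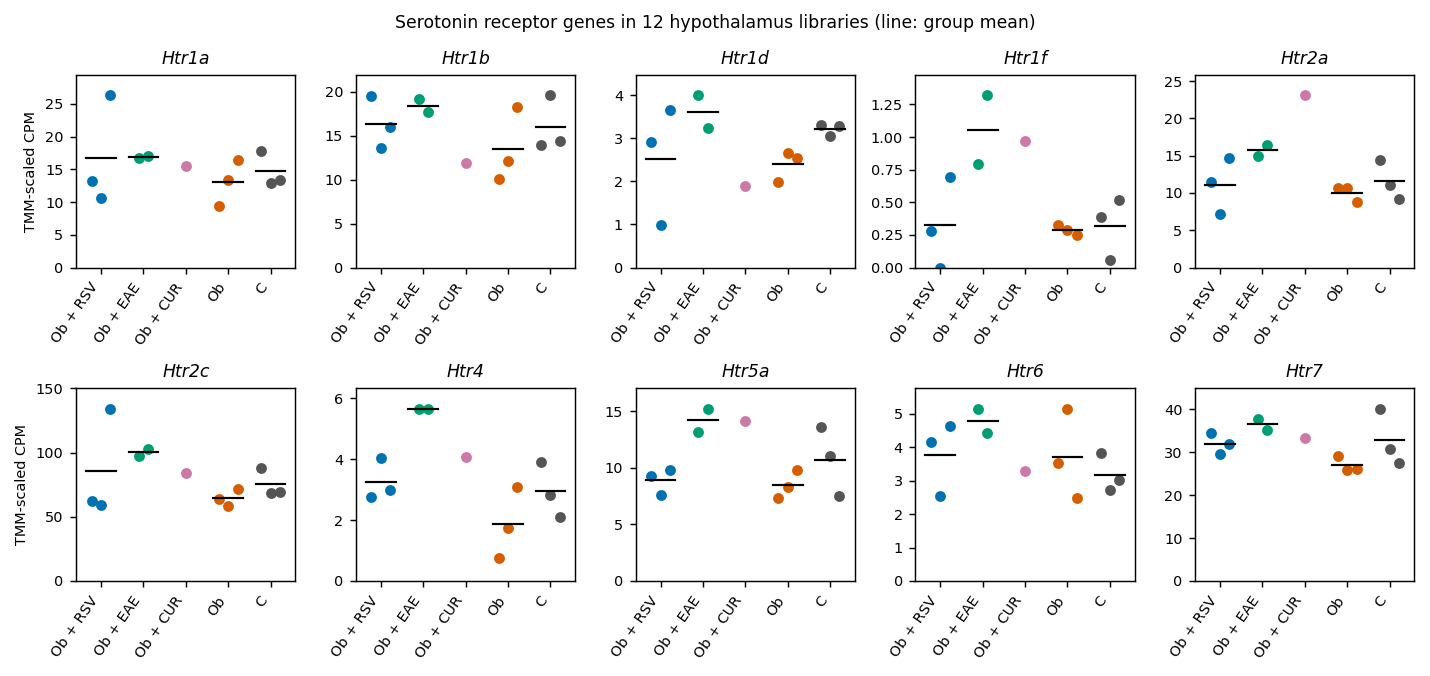
Level of each of the 10 receptor genes (y axis, TMM-scaled CPM from 0, with its own scale per panel) in Ob + RSV, Ob + EAE, Ob + CUR, Ob and C (x axis). Points are libraries in replicate order and lines are group means. In the Htr2c panel, Ob + RSV 3 at 134 CPM is the highest point, and in the Htr4 panel the Ob + EAE libraries at 5.67 and 5.64 CPM lie above all others.

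Whether a receptor gene differed between any of Ob + RSV, Ob and C was tested first, by the quasi-likelihood F test of edgeR over 33534 genes. The unadjusted p was under 0.05 for 0 of the 10 receptor genes, against 2.77% of all genes, and the smallest, 0.288, belonged to Htr2c. Every adjusted p was 0.99997. In bulk tissue, fewer cells that carry a receptor and less of its RNA per cell cannot be told apart.

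For obesity itself, Ob vs. C, 9 of the 10 receptor genes had a log2FC below 0, against 50.2% of all genes tested, with a median of −0.25 beside −0.00 for all genes. None passed the test. By edgeR, 0 receptor genes had an adjusted p under 0.05 with a log2FC of at least 1, as did 0% of all genes, and 0 had an unadjusted p under 0.05, against 2.75% of all genes. DESeq2 gave 0 and 0. Htr2c averaged 64.7 ± 6.74 CPM in Ob and 75.2 ± 10.9 in C (SD, n = 3 each), a log2FC of −0.24 with a 95% interval of −0.75 to 0.28. Without C 1 this value was −0.10, and with the trend of each library on length and GC removed it was −0.06. The smallest p of the 10, 0.195 by edgeR, was that of Htr7, at 27.1 ± 1.86 CPM in Ob and 32.8 ± 6.58 in C (log2FC −0.30, SE 0.23, and −0.12 without C 1). Htr4 had the lowest log2FC, −0.68 (SE 0.58), which ran from −1.25 without Ob 3 to −0.31 without Ob 1, and Htr6 the only one above 0, 0.20 (SE 0.49). Htr1d was the 1 gene with Ob libraries entirely below C, where 3.78% of all genes were so, with a log2FC of −0.44 (SE 0.57). Intervals of Htr1a, Htr1b, Htr2a, Htr2c and Htr7 stayed within −1 to 1, whereas those of Htr1d, Htr1f, Htr4, Htr5a and Htr6 did not.

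Markers of neighbouring tissue were read in the same comparison, and 0 of them were called by edgeR or by DESeq2. Of 10 thalamus markers, 7 had an unadjusted p under 0.05 and a level lower in Ob, where 1.4% of all genes were so, with a list median of −0.89 and a summed level of 280 to 426 CPM in Ob and 398 to 738 CPM in C, highest in C 1. The choroid plexus markers had a list median of −0.61, with 1 of 12 at an unadjusted p under 0.05 (Ttr), and the hypothalamus markers had a median of 0.15, with 1 of 15 (Avp). Their part in the receptor values was not tested.

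**Figure D4:**
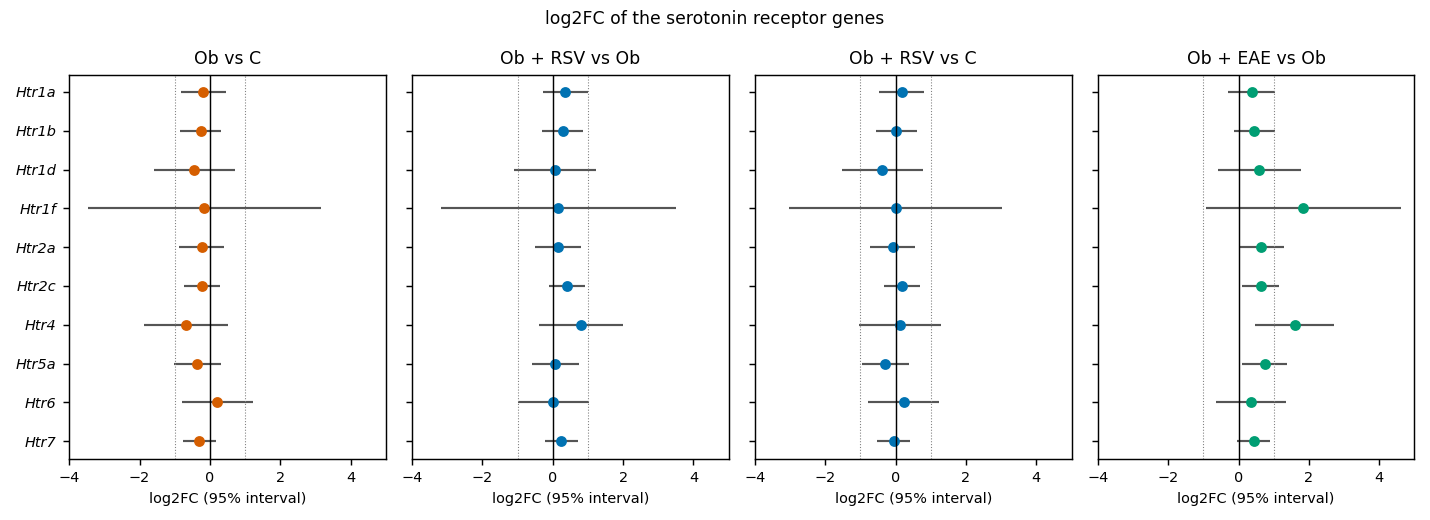
log2FC (x axis) of the 10 receptor genes (y axis) in 4 comparisons, from the edgeR fit, with 95% intervals and dotted lines at −1 and 1. Points of Ob vs. C lie left of 0 except that of Htr6, and points of Ob + EAE vs. Ob all lie right of 0, with intervals of Htr2a, Htr2c, Htr4 and Htr5a that do not reach it.

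For RSV, Ob + RSV vs. Ob, 10 of the 10 receptor genes had a log2FC above 0, against 49.6% of all genes, with a median of 0.20 beside 0.00 for all genes. By edgeR, 0 passed at an adjusted p under 0.05 (0% of all genes) and 0 at an unadjusted p under 0.05 (3.16% of all genes), and DESeq2 gave 0 and 0. Htr2c averaged 85.3 ± 42.5 CPM in Ob + RSV and 64.7 ± 6.74 in Ob (SD, n = 3 each), a log2FC of 0.40 (SE 0.25, interval −0.11 to 0.92, unadjusted p 0.118 by edgeR). Htr4 had the highest log2FC, 0.81 (SE 0.58), and Htr1a had 0.36 (SE 0.32). Htr7 was the 1 gene whose Ob + RSV libraries all lay above all Ob libraries, as did 2.76% of all genes, at 32.0 ± 2.50 CPM in Ob + RSV and 27.1 ± 1.86 in Ob (log2FC 0.24, SE 0.23).

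The shared direction rested on Ob + RSV 3, the library without Nr5a1, Rax and nearly all Pomc. Without it, 3 of the 10 genes had a log2FC above 0, that of Htr2c was −0.10 and that of Htr1a −0.14. Without Ob + RSV 1 or Ob + RSV 2, Htr2c had a log2FC of 0.60 in each case (unadjusted p 0.0251 and 0.035 by edgeR). Ob + RSV 3 was also the library whose counts leaned most to genes of low GC content, with a slope of −0.29 on the log2 scale per 10 percentage points of GC, against 0.27 in Ob 1. With the trend of each library on length and GC removed, the log2FC of Htr2c was 0.18 (unadjusted p 0.411 by edgeR). The longest transcript of Htr2c holds 42.1% GC. The 12 choroid plexus markers summed to 192 to 237 CPM in Ob + RSV, highest in Ob + RSV 3, and to 161 to 183 CPM in Ob. In Ob + RSV 3 Enpp2 had 167 CPM of that sum and Ttr had 0 reads. The part of these differences in the receptor values was not tested.

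Ob + RSV vs. C compared the treated mice with the lean controls. Here 5 of the 10 genes had a log2FC above 0, against 49.2% of all genes, with a median of 0.01, and by edgeR 0 passed at an adjusted p under 0.05 (0% of all genes) and 0 at an unadjusted p under 0.05 (2.87% of all genes). DESeq2 gave 0 and 0. Htr2c had a log2FC of 0.17 (SE 0.25) and Htr7 one of −0.06 (SE 0.23). Without Ob + RSV 3, the log2FC of Htr2c was −0.34. Each of these 3 comparisons shares a group with each of the others, so their values are not independent.

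For aged garlic extract, Ob + EAE vs. Ob, 10 of the 10 receptor genes had a log2FC above 0, against 52% of all genes, with a median of 0.61 beside 0.05 for all genes. By edgeR in a fit of 12 libraries, 0 were called at an adjusted p under 0.05 with a log2FC of at least 1, against 1.84% of all genes, and 4 had an unadjusted p under 0.05 and were higher in Ob + EAE, against 6.87% of all genes. Both Ob + EAE libraries lay above all Ob libraries for 8 of the 10 genes, the exceptions being Htr1b and Htr6, against 23.3% of all genes.

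Htr4 came closest to the threshold, at 5.66 ± 0.0162 CPM in Ob + EAE (n = 2) and 1.87 ± 1.17 in Ob (n = 3), a log2FC of 1.60 (SE 0.55, adjusted p 0.128 by edgeR). It was called with DESeq2 (log2FC 1.61) and without Ob 3 (log2FC 2.17), and its value without Ob 1, whose 14 reads were the fewest, was 1.27. Htr2c averaged 100.1 ± 3.80 CPM in Ob + EAE (n = 2) and 64.7 ± 6.74 in Ob (n = 3), a log2FC of 0.63 (SE 0.26, adjusted p 0.242 by edgeR). Htr5a had a log2FC of 0.75 (SE 0.31, adjusted p 0.250 by edgeR) and Htr2a one of 0.65 (SE 0.31, adjusted p 0.356 by edgeR). The highest log2FC, 1.84 for Htr1f, had an SE of 1.36 and an interval of −0.94 to 4.62. For these named genes the direction was the same under all 21 alternatives, in which Htr2c ran from 0.39 to 0.78 and Htr4 from 1.24 to 2.17.

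Trends on length, the number of genes detected and tissue markers differed between these groups as well. The Ob + EAE libraries leaned to long genes, with slopes of 0.030 and 0.048 per doubling of length against −0.042, 0.005 and −0.041 in Ob. Slopes per 10 percentage points of GC were −0.022 and −0.097 in Ob + EAE, within the range of Ob, at 0.269, 0.221 and −0.121. With the trend on length and GC removed, the log2FC of Htr2c was 0.39 (unadjusted p 0.0945 by edgeR), that of Htr2a 0.42, that of Htr5a 0.62 and that of Htr4 1.49 (unadjusted p 0.00927 by edgeR), and 2 receptor genes had an unadjusted p under 0.05. Genes with reads numbered 37165 and 38081 in Ob + EAE and 26123 to 32664 in Ob. Of 15 hypothalamus markers tested, 7 had an unadjusted p under 0.05 and a level lower in Ob + EAE, where 6.48% of all genes were so, and Avp was called, at 304 and 244 CPM in Ob + EAE and 550 to 1542 CPM in Ob (log2FC −1.84, SE 0.37). The thalamus list had a median of 0.55 and the choroid plexus list one of 0.64, with summed choroid plexus levels of 244 to 261 CPM in Ob + EAE and 161 to 183 CPM in Ob. Enpp2 alone gave 165 and 169 CPM of these sums in Ob + EAE and 109 to 129 CPM in Ob. Of the 12 markers, 7 had both Ob + EAE libraries above all Ob libraries, against 23.3% of all genes. Folr1 was the 1 marker with both below, against 15.5% of all genes. The part of these differences in the receptor values was not tested. The Ob + EAE pair was also closer to each other than other replicates, with a mean chi-square per gene of 6.51 against 22.4 to 73.1 in the other pairs of 1 group, though above the 1 that counting noise alone gives. Should these libraries not stem from separate mice, their SD would measure technical spread only. The p-values of this comparison, whose spread is fitted over all 12 libraries, would then rest on too high a number of Ob + EAE animals.

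The transduction genes downstream of the receptors were read in the same way, from lists of Gi/o, Gq and Gs genes. In Ob vs. C, 0 of 10, 0 of 11 and 0 of 15 were called by edgeR, and 1, 2 and 4 had an unadjusted p under 0.05, all lower in Ob, where 1.4% of all genes were so (2.75% either way). Adcy1, a calcium-stimulated adenylyl cyclase, had a log2FC of −0.95 (SE 0.27), Pde4d, which breaks down cyclic AMP, −1.05 (SE 0.34), Adcy9 −1.26 (SE 0.47), Plcb4, a phospholipase C, −0.51 (SE 0.21), Itpr1, the calcium channel opened by inositol trisphosphate, −0.52 (SE 0.22) and Kcnj6, a potassium channel of the Gi/o arm, −1.17 (SE 0.57). In Ob + RSV vs. Ob, 1 gene of the 36 in these lists had an unadjusted p under 0.05, a share no higher than the 3.16% of all genes. It was Adcy9, with a log2FC of 1.01 (SE 0.47), and 0.25 without C 2, Ob 1 and Ob + RSV 2.

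In Ob + EAE vs. Ob the same lists held called genes. In the Gs list 4 of 15 rose and in the Gq list 1 of 11, and the Gi/o list had 1 of 10 that rose, with 0 called lower in each, where 1.84% of all genes were called. Adcy9 had 26.2 and 37.4 CPM in Ob + EAE and 1.59, 9.39 and 5.21 CPM in Ob, a log2FC of 2.56 (SE 0.48, adjusted p 0.00678 by edgeR). Pde4d rose by a log2FC of 1.94 (SE 0.34), Adcy1 by 1.14 (SE 0.28), Adcy3 by 1.11 (SE 0.28), Itpr1 by 1.05 (SE 0.22) and Kcnj6 by 2.19 (SE 0.53). Of the receptor partners, S100a10, the p11 protein that brings Htr1b and Htr4 to the cell surface, fell, at 12.8 and 11.7 CPM in Ob + EAE and 21.8 to 33.3 CPM in Ob (log2FC −1.11, SE 0.28). Cartpt, a satiety peptide made in Pomc neurons, fell as well (log2FC −1.65, SE 0.44), a call kept in 9 of 21 alternatives. None of these 8 genes, nor Avp, was called without Ob 1 or without Ob + EAE 2, where 18 and 19 genes in all were called against 665 with every library, while leaving out Ob + EAE 1 gave 228 and leaving out Ob 3 gave 1172. With C 2, Ob 1 and Ob + RSV 2 left out together, 1 gene was called. The log2FC of each kept its sign in all 21 alternatives, at 2.13 to 3.27 for Adcy9, 1.72 to 2.17 for Pde4d, 0.98 to 1.33 for Adcy1 and −1.18 to −0.86 for S100a10.

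Editing enzymes and receptor partners were 11 genes. In Ob vs. C 0 were called and 3 had an unadjusted p under 0.05, all lower in Ob, where 1.4% of all genes were so: Adarb1, which edits Htr2c RNA, with 177, 155 and 159 CPM in Ob and 324, 192 and 161 CPM in C (log2FC −0.49, SE 0.23), Adar, the other editing enzyme, with −0.44 (SE 0.22), and the receptor kinase Grk5 with −0.57 (SE 0.28). The value of Adarb1 turned on C 1, without which it was −0.12 (unadjusted p 0.624 by edgeR). Without C 1, 0 of the 9 transduction, partner and editing genes named for Ob vs. C had an unadjusted p under 0.05, and without Ob 1, 3 of the 9 did. In Ob + RSV vs. Ob 0 of the 11 had an unadjusted p under 0.05. Whether the share of edited Htr2c differed was not analysed here.

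Of 13 genes for serotonin synthesis, transport and breakdown, 12 could be tested, and 0 were called in any of the comparisons by edgeR. Slc18a2, the transporter that loads serotonin, dopamine and other amines into vesicles, had 39.6, 23.7 and 17.1 CPM in Ob + RSV and 36.3, 45.3 and 52.6 CPM in Ob. Its log2FC was −0.74 (SE 0.25, unadjusted p 0.00585 by edgeR). It was the 1 gene of the 12 with an unadjusted p under 0.05 there, against 3.16% of all genes. Ob + CUR had 99.3 CPM of Slc18a2. In Ob vs. C, 0 of the 12 had an unadjusted p under 0.05, against 2.75% of all genes. Tph2 was tested on at most 15 reads per library.

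Of 7 melanocortin and feeding genes, several of them expressed by the neurons on which Htr2c acts, 0 were called in Ob vs. C or Ob + RSV vs. Ob. Pomc had 192, 173 and 68.4 CPM in Ob and 51.2, 60.5 and 71.3 CPM in C (log2FC 1.23, SE 0.57, unadjusted p 0.0406 by edgeR), and Cartpt a log2FC of 0.96 (SE 0.37). Without Ob 1 these values were 0.98 for Pomc and 0.53 for Cartpt, and neither had an unadjusted p under 0.05. Over 18 alternatives Pomc ran from 0.84 to 1.56 and was called in 1. Cartpt ran from 0.50 to 1.27 and was called in 0. In Ob + RSV vs. Ob the log2FC of Pomc was −0.91 (SE 0.57), from −2.31 to −0.34 over 18 alternatives and called in 1. That of Cartpt was −0.56 (SE 0.37), from −1.33 to −0.01 and called in 0. The 4 other receptor genes measured were low. Htr3a, a subunit of the serotonin-gated ion channel, had 3.11, 6.23 and 5.14 CPM in Ob + RSV, 3.48 and 3.14 in Ob + EAE, 1.73 in Ob + CUR, 4.18, 1.91 and 1.74 in Ob and 2.62, 2.88 and 3.01 in C. Htr5b ran from 0.330 to 2.14 CPM, Htr2b from 0 to 1.56 CPM and Htr3b from 0 to 0.942 CPM over the 12 libraries, and 0 of the 4 had an unadjusted p under 0.05 in any of the 4 comparisons by edgeR.

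The genes whose pattern was most like that of Htr2c over the 12 libraries, by Pearson r of log2 CPM among 29106 expressed genes, were Slc16a7, a monocarboxylate transporter (r = 0.958, Spearman rho = 0.958), Kif5c, a neuronal kinesin (0.957 and 0.888), Edil3, a secreted matrix protein (0.949 and 0.979), Ccdc50 (0.942 and 0.944) and Gm48621 (0.941 and 0.845). Closest to Htr4 were Shroom4, a regulator of the cytoskeleton (r = 0.96), and Mtmr7, a lipid phosphatase (0.953), and closest to Htr2a were Tor1aip1, a protein of the nuclear envelope (0.97), and Hif1a, the hypoxia-inducible factor (0.963). Htr7 had lower likeness, with Ptprj, a receptor phosphatase, at 0.91 and Ppp2r2c, a phosphatase subunit, at 0.909. The likeness values are the highest of many over 12 libraries that share depth, scaling and the trends on length and GC, and are descriptions only.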

How the data were processed

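Hypothalamic poly(A) RNA was sequenced as stranded paired reads. Per the study's methods, the authors used HISAT2 v2.0.5 for alignment, and featureCounts v1.5.0-p3 made the counts of each gene. They deposited 1 table of raw counts, and the submitters' notes name GRCm39. Neither the strand setting of that step, nor the annotation release, nor the handling of reads with several matches is given in the sources used here. Whether reads from overlapping or antisense genes were kept apart is therefore not known.

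Totals of 15655156 to 26284661 reads per library set the precision. Genes with at least 10 reads in all were tested with the edgeR 4.0.16 quasi-likelihood test (TMM scaling, R 4.3.3) and Benjamini-Hochberg adjustment. Calls needed an adjusted p under 0.05 together with a log2FC of 1 or more in size. Ob + RSV, Ob and C were fitted together (6 residual df) and Ob + EAE vs. Ob in all 12 libraries (7 residual df). Ob + CUR, with 1 library, entered no comparison. Alternatives were RLE scaling, library totals, filterByExpr, a minimum of 1 read, DESeq2 1.42.0, other sets of libraries, a replicate block, each library left out and, chosen after seeing the data, removal of trends on length and GC.

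The receptor genes and all lists were chosen with earlier results of these data known. Named were all receptor genes, up to 3 genes of each pathway list with the smallest p in Ob + RSV vs. Ob or in Ob vs. C, and the genes most like a receptor gene. Called list genes in Ob + EAE vs. Ob, and markers with values, were named after their values were seen. Gene symbols, exon lengths and GC, the last taken from the longest transcript of each gene, come from GENCODE vM21 and RefSeq tables. Of 78334 gene IDs, 51486 had a symbol.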

Additional observations from a re-analysis of the deposited data

Results flagged for a closer look

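The Ob + CUR library, which entered no comparison, was above every C library for 4 of the 10 receptor genes, as it was for 28.9% of all genes, so the number of such genes is not read as a result. Htr2a had 23.1 CPM in Ob + CUR, against at most 14.4 CPM in C, and was above all 11 other libraries, of which the highest had 16.4 CPM. Htr5a had 14.1 CPM in Ob + CUR and at most 13.7 CPM in C, Htr4 4.09 and at most 3.91, and Htr1f 0.970 and at most 0.517, and for these 3 genes an Ob + EAE library was higher still. These differences rest on 1 library and were not tested. The same library had the lowest summed hypothalamus markers of the 12, at 381 CPM, with Oxt at 3.96 CPM, and 526 CPM of thalamus markers, against 398 to 738 CPM in C. The part of this in the receptor values was not tested.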

How the results depend on the processing

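Of 747 receptor log2FC values under the alternatives, 44 differed in sign from the reported one, 18 in Ob + RSV vs. Ob, 19 in Ob + RSV vs. C, 7 in Ob vs. C and 0 in Ob + EAE vs. Ob. Only Htr4 in Ob + EAE vs. Ob changed its call, with DESeq2 (1.61), the replicate block (1.72) and without Ob 3 (2.17). Called genes, 0, 0, 0 and 665 over Ob vs. C, Ob + RSV vs. Ob, Ob + RSV vs. C and Ob + EAE vs. Ob, numbered 35, 11, 32 and 1031 with a minimum of 1 read and 50, 10, 35 and 1417 with the replicate block. In Ob + EAE vs. Ob they numbered 77 with filterByExpr and 1 without C 2, Ob 1 and Ob + RSV 2. Leaving out each library gave 0 to 11, 0 to 2, 0 to 3 and 18 to 1172. Same-numbered libraries deviated together only weakly (r −0.02 to 0.22 over 9 pairs, mean 0.07). Pairs with different numbers had r from −0.2 to 0.1 (18 pairs, mean −0.04). The 2 ranges overlap, and whether the numbers pair the libraries is not settled by these values. Receptor genes with a log2FC above 0 in Ob vs. C, 1 as reported, numbered 2 with the block, 2 without the 3 libraries, 0 with the trends on length and GC removed and 0 to 2 with each library left out. Leaving out each library gave 3 to 10 above 0 in Ob + RSV vs. Ob, lowest without Ob + RSV 3, and 3 to 8 in Ob + RSV vs. C. Receptor genes at an unadjusted p under 0.05 in Ob + EAE vs. Ob, 4 as reported, numbered 2 with the trends removed and 1 to 5 with each library left out, and in Ob + RSV vs. Ob 0 to 1. Leaving out an Ob + EAE library leaves 1 library, assumed to vary like the other groups. The cause of these shifts was not tested. Depth limits Htr1f, with at most 29 reads per library.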
